A study of Mus musculus with 12 samples.

Results

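Collagens are the main structural proteins of the extracellular matrix, and the genes described here are the 44 of the 24422 genes in the count tables whose symbol is Col, a type number, the letter a and a chain number. Of the 44, 11 encode fibrillar collagens, 6 encode the type IV chains of basement membranes and 27 encode other types, among them 6 type VI chains. RNA was measured by poly-A RNA-seq in stromal vascular cells of mouse adipose tissue, that is, its non-adipocyte cells, which the labels call stromal and primary. The 12 libraries form 4 groups of 3. By the sample labels all mice carried a knock-in cassette at 1 allele of p21 (Cdkn1a), a cell cycle inhibitor whose promoter drives the cassette, so no group had 2 unmodified p21 alleles. SD mCherry (replicates 1, 2 and 3) had the genotype p21+/mcherry on the standard diet, and HFD mCherry (replicates 15, 17 and 20) were labelled with the same genotype on the high-fat diet. The series' design text differs here: it gives the high-fat diet control as p21+/-, with no mCherry named. The sample labels were followed, and if the design text holds, the comparisons with HFD mCherry also differ in the mCherry cassette. HFD Tert (replicates 25, 26 and 27) had p21+/mcherry-Tert, which adds Tert, the catalytic subunit of telomerase. HFD TertCi (replicates 30, 31 and 33) had p21+/mcherry-TertCi, which carries a catalytically inactive Tert. The labels give no age, sex, fat depot or batch, and no group combines a Tert cassette with the standard diet. They do not say that the replicates are separate mice, so p-values measure only the spread between these libraries.

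Collagen chains assemble into a triple helix. Fibrillar types I, III and V form the cross-banded fibres of interstitial matrix. Type IV forms the sheet-like network of basement membranes around vessels, muscle and, in adipose tissue, each adipocyte. Type VI forms beaded microfilaments and is abundant in adipose matrix, and its deposition accompanies obesity. Fibroblast-like progenitors are the usual source of types I, III, V and VI in fat, while endothelial and mural cells also make type IV.

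The libraries held 16430330 to 19486965 counts and 37 to 44 of the collagen genes had at least 1 count in each. Tert counts were 8 to 78 in SD mCherry and 17 to 30 in HFD mCherry, against 131 to 282 in HFD Tert and 187 to 304 in HFD TertCi, so each cassette library lay above each mCherry library. Libraries of 1 group differed in their make-up: the summed level of 8 epithelial and epididymal markers ran from 4544 to 55063 CPM (read counts scaled to a common library size, by TMM) in SD mCherry, 249 to 9275 in HFD mCherry, 56.4 to 22472 in HFD Tert and 251 to 34554 in HFD TertCi. The common biological coefficient of variation was 0.536, and few genes passed adjustment in any comparison.

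Promoters are shown first for 4 genes that carry the diet comparison: the type IV pair that shares 1 start region, and 2 interstitial chains. They come from RefSeq (GRCm38.p6), each from 250 bases before to 50 bases after the annotated start, 5′ to 3′ on the gene's strand. In the first 2, capitals mark the 78-base stretch that both windows hold, read on opposite strands, at chr8:11312777-11312854. In the others, capitals mark matches to CCAAT, to the GC box GGGCGG or to TATAAA, on either strand.
Col4a1 (chr8:11312777-11313076, minus strand): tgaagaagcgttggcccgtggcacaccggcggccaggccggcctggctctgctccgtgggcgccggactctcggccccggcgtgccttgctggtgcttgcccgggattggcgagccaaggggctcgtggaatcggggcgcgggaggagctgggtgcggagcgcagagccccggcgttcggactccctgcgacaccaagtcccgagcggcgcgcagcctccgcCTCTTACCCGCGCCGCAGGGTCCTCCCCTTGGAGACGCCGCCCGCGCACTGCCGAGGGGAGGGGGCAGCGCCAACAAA
Col4a2 (chr8:11312555-11312854, plus strand): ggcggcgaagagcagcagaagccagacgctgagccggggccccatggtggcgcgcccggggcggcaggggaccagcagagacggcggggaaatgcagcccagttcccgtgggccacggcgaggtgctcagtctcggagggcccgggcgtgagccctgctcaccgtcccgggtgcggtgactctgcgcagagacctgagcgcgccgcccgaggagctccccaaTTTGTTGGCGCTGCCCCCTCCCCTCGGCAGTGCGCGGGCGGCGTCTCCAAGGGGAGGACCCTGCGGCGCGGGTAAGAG
Col1a2 (chr6:4505368-4505667, plus strand): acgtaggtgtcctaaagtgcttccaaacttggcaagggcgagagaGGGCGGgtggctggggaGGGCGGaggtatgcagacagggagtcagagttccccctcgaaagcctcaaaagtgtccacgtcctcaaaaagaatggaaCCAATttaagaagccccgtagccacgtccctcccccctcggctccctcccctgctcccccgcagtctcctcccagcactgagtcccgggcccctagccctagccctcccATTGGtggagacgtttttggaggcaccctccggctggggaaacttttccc
Col3a1 (chr1:45311288-45311587, plus strand): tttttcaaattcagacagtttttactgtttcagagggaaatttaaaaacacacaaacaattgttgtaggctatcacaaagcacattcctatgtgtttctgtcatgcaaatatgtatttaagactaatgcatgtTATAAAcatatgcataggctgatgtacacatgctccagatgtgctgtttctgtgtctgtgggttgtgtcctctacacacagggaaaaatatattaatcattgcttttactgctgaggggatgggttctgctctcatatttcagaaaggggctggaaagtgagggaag
The Col4a1 and Col4a2 starts lie 21 bases apart on opposite strands, and their first exons overlap by 22 bases before the genes run apart (GENCODE M21, GRCm38). Col4a2 held CCAAT with its first base at -32, and Col4a1 held it on the minus strand at -145. Both also held the GC box, Col4a2 at -192, at -48 on the minus strand and at 8, and Col4a1 on the minus strand at 10. The RefSeq start of Col1a2 lies inside the GENCODE gene, downstream of its first base. Col1a2 held CCAAT with its first base at -109 and again, on the minus strand, at position 1, and GC boxes at -205 and -188, with position 1 at the start. The only match in the Col3a1 window was TATAAA at -117. In all, 35 of the 44 genes matched the table, with 38 windows, of which 13 held CCAAT, 23 the GC box and 5 TATAAA, against 37.4%, 35.7% and 13.6% of all 32851 windows of that length. A match is a description of letters and not of a bound site.

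The high-fat diet comparison (HFD mCherry against SD mCherry) asks how diet is reflected in collagen RNA, with the doubt about the control genotype given above. The interstitial chains of types I, III, V and VI and the type IV chains Col4a1 and Col4a2 were higher in every HFD mCherry library than in any SD mCherry library, by 5.05 to 12.7 times in the fit, except for the type VI chains Col6a4, Col6a5 and Col6a6, whose groups overlapped. Col3a1, a chain of type III that lies in the same fibrils as type I, had the largest fold change of the 41 collagen genes tested. Among the tested genes 28 had a positive and 13 a negative log2 fold change, with a median of 0.95 over the 41 genes, beside -0.08 over all 16713 genes tested. By edgeR's quasi-likelihood test with Benjamini-Hochberg adjustment 0 of the 41 passed an adjusted p of 0.05, against 0.0479% of all genes, and the lowest adjusted p was 0.0652. At an unadjusted p under 0.05 there were 20 higher and 1 lower, against 14.1% and 10% of all genes, and 19 higher and 4 lower had groups that did not overlap, against 13.9% and 11.6%. DESeq2 called 18 higher and 1 lower (7.76% and 4.29% of all genes), and edgeR with a covariate for epithelial content called 17 higher and 0 lower (4.95% and 1.45%). The count moved with single libraries: without HFD mCherry replicate 15, the lowest of its group for most of these chains, edgeR called 17, all higher, against 12.2% of all genes, and without HFD Tert replicate 27 it called 15, against 4%.

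The fibrillar class had the highest median of the 3 classes in this comparison, 2.48 over 10 tested genes. Col3a1 (chromosome 1, 45311538 to 45349706) stood at 651, 732 and 245 CPM in SD mCherry, 2829, 8790.2 and 8975 in HFD mCherry, 807, 1128 and 3676 in HFD Tert and 836, 1929 and 1412 in HFD TertCi. All 3 HFD mCherry libraries lay above all SD mCherry libraries, with replicate 15 the lowest of the 3, and HFD Tert replicate 27 lay above HFD mCherry replicate 15. The log2 fold change for diet was 3.66 ± 0.73 (SE, adjusted p = 0.0659).

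Col1a1 and Col1a2 encode the chains of type I collagen, the most abundant fibril former. Col1a1 (chromosome 11, 94936224 to 94953042) stood at 612, 509 and 206 CPM in SD mCherry, 1348, 3601 and 4652 in HFD mCherry, 587, 713 and 1064 in HFD Tert and 509, 838 and 798 in HFD TertCi. Its HFD mCherry libraries lay above all 9 others, which was so for only 2 of the 41 collagen genes, Col1a1 and Col6a1. That count is near the background, which is 2.92% of all genes. The diet log2 fold change of Col1a1 was 2.86 ± 0.54 (SE, adjusted p = 0.0659). Col1a2 (chromosome 6, 4504814 to 4541544) stood at 830.0, 844 and 385 CPM in SD mCherry, 1578, 4329 and 4839 in HFD mCherry, 990.4, 1128 and 2124 in HFD Tert and 859.7, 1618 and 1264 in HFD TertCi. Here HFD Tert replicate 27 and HFD TertCi replicate 31 exceeded HFD mCherry replicate 15. The diet log2 fold change of Col1a2 was 2.38 ± 0.51 (SE, adjusted p = 0.0671).

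Type V collagen sits in the core of type I fibrils and limits their width. Col5a1 stood at 124, 155 and 47.9 CPM in SD mCherry, 261, 794 and 904 in HFD mCherry, 141, 157 and 419 in HFD Tert and 114, 264 and 200.1 in HFD TertCi. Col5a2 stood at 78.2, 89.2 and 24.9 CPM in SD mCherry, 220.0, 702 and 751 in HFD mCherry, 90.05, 129 and 338 in HFD Tert and 73.05, 167 and 128 in HFD TertCi. Col5a3 stood at 71.9, 94.1 and 25.8 CPM in SD mCherry, 192, 679 and 747 in HFD mCherry, 73.2, 72.4 and 299 in HFD Tert and 70.1, 153 and 126 in HFD TertCi. For all 3 chains the HFD mCherry libraries exceeded the SD mCherry libraries and HFD Tert replicate 27 was the highest of its group. Diet log2 fold changes were 2.58 ± 0.63 (SE, adjusted p = 0.0729) for Col5a1, 3.12 ± 0.69 (SE, adjusted p = 0.0679) for Col5a2 and 3.08 ± 0.74 (SE, adjusted p = 0.0729) for Col5a3.

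The remaining fibrillar genes were far lower. Col11a2 stood at 2.597, 2.23 and 1.101 CPM in SD mCherry, 4.03, 7.46 and 7.82 in HFD mCherry, 3.38, 2.94 and 4.82 in HFD Tert and 2.96, 4.83 and 3.51 in HFD TertCi, with a diet log2 change of 1.70 ± 0.44 (SE, adjusted p = 0.0776). Col27a1, a fibrillar chain best known from cartilage, stood at 25.5, 28.1 and 20.3 CPM in SD mCherry, 29.6, 50.5 and 63.2 in HFD mCherry, 25.6, 22.4 and 41.3 in HFD Tert and 26.98, 53.3 and 23.9 in HFD TertCi, with 0.95 ± 0.38 (SE, adjusted p = 0.17). Both had HFD mCherry libraries above all SD mCherry libraries. Col11a1, a cartilage fibril chain, went the other way with overlapping groups, at 0.601 to 3.81 CPM in HFD mCherry and 1.33 to 4.73 in SD mCherry, a log2 change of -0.75 ± 0.70 (SE, adjusted p = 0.516). Col24a1 had 0 to 42 counts a library and a fold change whose sign turned with the library left out, and Col2a1, the cartilage chain, had 0 to 10 counts and was not tested.

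**Figure D1:**
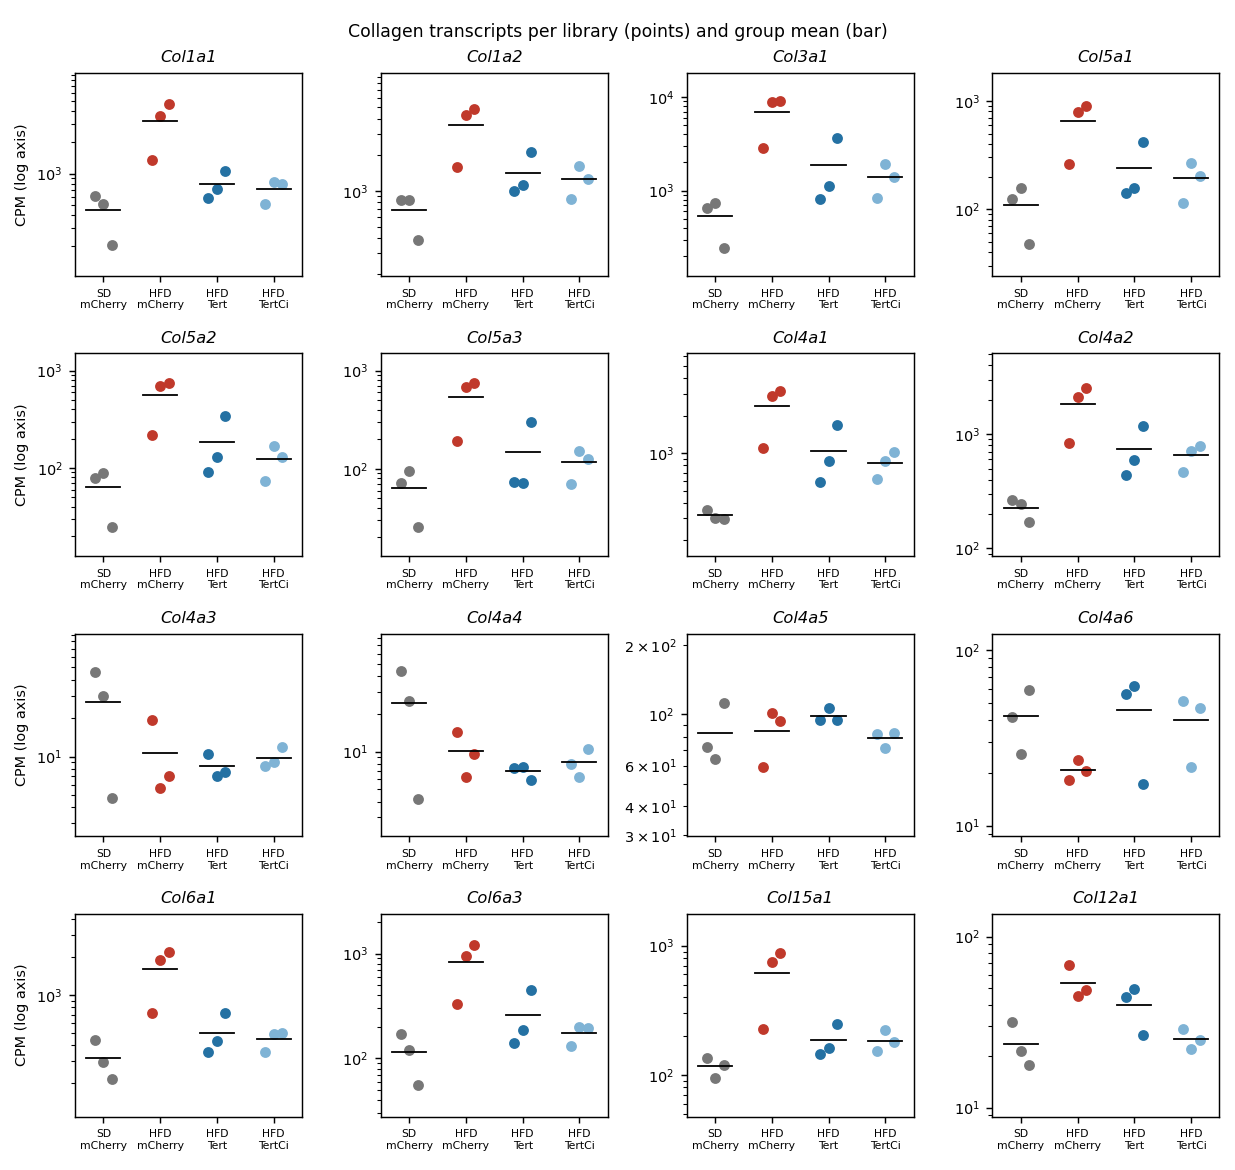
CPM on a log axis for 16 collagen genes in each library (points, coloured by group) with the group mean (bar). The type I, III, V and VI chains and Col4a1 and Col4a2 are highest in HFD mCherry, with replicate 15 the lowest point of that group, while Col4a3 to Col4a6 are not.

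Type IV collagen is built from 3 pairs of chains whose genes lie head to head, and the pairs did not move alike. Col4a1 and Col4a2 form the network found in nearly all basement membranes. Col4a1 (chromosome 8, 11198423 to 11312826) stood at 352, 304 and 299 CPM in SD mCherry, 1099.6, 2905 and 3165 in HFD mCherry, 584, 864 and 1672 in HFD Tert and 625, 869 and 1029.8 in HFD TertCi. Col4a2 (chromosome 8, 11312805 to 11449287) stood at 267, 247 and 171 CPM in SD mCherry, 832, 2133 and 2541 in HFD mCherry, 438, 596 and 1184 in HFD Tert and 467, 709.5 and 781 in HFD TertCi. For both, every HFD library of any genotype exceeded every SD mCherry library. The same was so for Col1a2, Col3a1, Col11a2, Col15a1, Col18a1 and Col28a1, and the share of all genes with this order was not counted. Diet log2 fold changes were 2.91 ± 0.48 (SE, adjusted p = 0.0652) for Col4a1 and 3.01 ± 0.50 (SE, adjusted p = 0.0652) for Col4a2, the lowest adjusted p of any collagen genes. The use of strand in counting is not given in the sources used here, so reads in the 22 shared bases cannot be assigned, a stretch that is short beside transcripts of 6615 and 6450 bases.

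Col4a3 and Col4a4, whose starts lie 72 bases apart, encode chains of the kidney and alveolar basement membranes. Col4a3 stood at 45.97, 29.6 and 4.75 CPM in SD mCherry, 19.3, 5.65 and 7.05 in HFD mCherry, 10.4, 7.101 and 7.64 in HFD Tert and 8.42, 9.14 and 11.9 in HFD TertCi. Col4a4 stood at 43.5, 25.1 and 4.23 CPM in SD mCherry, 14.4, 6.31 and 9.56 in HFD mCherry, 7.35, 7.58 and 5.93 in HFD Tert and 7.91, 6.25 and 10.5 in HFD TertCi. Both were high in SD mCherry replicates 1 and 2 and low in replicate 3, so the SD mCherry group spans the others. Diet log2 fold changes were -1.33 ± 0.68 (SE, adjusted p = 0.252) and -1.27 ± 0.63 (SE, adjusted p = 0.242). The last pair, with starts 1309 bases apart on the X chromosome, split: Col4a5 stood at 72.3, 63.9 and 112 CPM in SD mCherry, 59.2, 101 and 93.2 in HFD mCherry, 94.2, 107 and 94.7 in HFD Tert and 81.8, 71.6 and 83.2 in HFD TertCi, with a log2 change of 0.03 ± 0.25 (SE, adjusted p = 0.947). Col4a6 stood at 41.4, 25.7 and 59.3 CPM in SD mCherry, 18.2, 23.6 and 20.5 in HFD mCherry, 56.4, 62.4 and 17.3 in HFD Tert and 51.3, 21.6 and 47.1 in HFD TertCi, lower in every HFD mCherry library than in any SD mCherry library, with -1.02 ± 0.48 (SE, adjusted p = 0.223). Median log2 fold change over the 6 type IV genes was -0.50. Col4a6 followed the summed level of 8 pericyte and smooth muscle markers by library, as it was low in the libraries where that sum was low (1549.9 to 3177 CPM in HFD mCherry, 2949 in SD mCherry replicate 2, 2784 in HFD Tert replicate 27 and 4096 in HFD TertCi replicate 31, against 7873 or more elsewhere). The same 6 low libraries also had the lowest sums of the epithelial (at most 9275 CPM, against 11378 or more), Schwann cell (at most 78.6, against 109.8 or more) and skeletal muscle markers (at most 79.8, against 254 or more) and the highest sums of the macrophage markers (556 or more, against at most 517). For the epithelial list this holds for the sum only, as HFD mCherry replicate 15 had the highest mean log2 level of the 12 libraries (9.53). By mean log2 level the macrophage list did not split them either, at 4.90 in HFD TertCi replicate 33 and 4.81 in SD mCherry replicate 2. The part of these lists in the Col4a6 values was not tested.

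Of the 6 type VI genes, all had positive diet fold changes, with a median of 2.19. Col6a1, Col6a2 and Col6a3 form the main type VI monomer. Col6a1 (chromosome 10, 76708792 to 76726168) stood at 444, 294 and 218 CPM in SD mCherry, 721, 1906 and 2205 in HFD mCherry, 356, 434 and 714 in HFD Tert and 352, 495 and 499 in HFD TertCi. Col6a3 (chromosome 1, 90765923 to 90843971), whose C-terminal fragment is the adipokine endotrophin, stood at 172, 119 and 55.8 CPM in SD mCherry, 330.3, 951 and 1200.2 in HFD mCherry, 142, 188 and 445 in HFD Tert and 133, 200.2 and 194 in HFD TertCi. Their diet log2 fold changes were 2.34 ± 0.46 (SE, adjusted p = 0.0659) and 2.84 ± 0.60 (SE, adjusted p = 0.0659), and that of Col6a2 was 2.47 ± 0.51 (SE, adjusted p = 0.0659). The alternative chains varied more within groups. Col6a5 stood at 327, 257 and 79.4 CPM in SD mCherry, 171, 657 and 1004 in HFD mCherry, 179, 94.1 and 338 in HFD Tert and 133, 366 and 191 in HFD TertCi, with overlapping groups and 1.47 ± 0.72 (SE, adjusted p = 0.237). Col6a6 had 1.66 ± 0.73 (SE, adjusted p = 0.196). Col6a4 stood at 85.9 CPM in HFD mCherry replicate 15 and at 3.01 and 3.23 in the other two libraries of that group. Its log2 fold change of 2.04 became -1.26 without replicate 15.

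Among the other types, Col15a1 and Col18a1 are multiplexins of vascular and adipocyte basement membrane zones, and Col18a1 carries endostatin. Col15a1 (chromosome 4, 47208161 to 47313167) stood at 134, 95.2 and 120.0 CPM in SD mCherry, 226, 745 and 883 in HFD mCherry, 145, 163 and 248 in HFD Tert and 152, 221 and 179 in HFD TertCi, with a diet log2 change of 2.41 ± 0.45 (SE, adjusted p = 0.0659). Col18a1 stood at 160.2, 148 and 143 CPM in SD mCherry, 174, 289 and 369 in HFD mCherry, 229, 217 and 188 in HFD Tert and 181, 197 and 248 in HFD TertCi, with 0.88 ± 0.26 (SE, adjusted p = 0.0957). Both had HFD mCherry libraries above all SD mCherry libraries. Fibril-associated collagens were mixed: Col14a1, which binds fibrils in mature tissue, had 1.93 ± 0.53 (SE, adjusted p = 0.0864), Col12a1 had 1.19 ± 0.30 (SE, adjusted p = 0.075) and Col16a1 had 0.49 ± 0.35 (SE, adjusted p = 0.388). The partners of type VIII collagen, a network collagen of endothelium and vessel wall, differed: Col8a1 stood at 32.4, 33.7 and 9.96 CPM in SD mCherry, 74.6, 299 and 300.1 in HFD mCherry, 49.3, 47.2 and 103 in HFD Tert and 29.7, 81.2 and 63.3 in HFD TertCi, with the largest positive fold change of the other types, 3.15 ± 0.66 (SE, adjusted p = 0.0659). Col8a2 stood at 65.1, 60.8 and 5.91 CPM in SD mCherry, 27.3, 11.00 and 18.2 in HFD mCherry, 10.3, 7.101 and 9.75 in HFD Tert and 8.82, 12.4 and 13.1 in HFD TertCi, with -1.22 ± 0.66 (SE, adjusted p = 0.276), its 2 highest libraries being SD mCherry replicates 1 and 2. Col28a1, described around nerves and glia, had 2.50 ± 0.50 (SE, adjusted p = 0.0659).

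A few other collagens were lower in HFD mCherry. Col23a1, a transmembrane collagen of epithelia, stood at 84.3, 27.7 and 247 CPM in SD mCherry, 23.4, 27.2 and 10.1 in HFD mCherry, 171, 155 and 10.9 in HFD Tert and 117, 20.3 and 99.1 in HFD TertCi, and was the only collagen gene lower at an unadjusted p under 0.05, with -2.56 ± 1.05 (SE, adjusted p = 0.181). It was high in the libraries with high smooth muscle, epithelial, Schwann cell and skeletal muscle marker sums. It was low in HFD Tert replicate 27 and HFD TertCi replicate 31, where the epithelial sum was 56.4 and 251 CPM. It was also low, at 23.4 CPM, in HFD mCherry replicate 15, which had the highest mean log2 epithelial level of the 12 libraries (9.53). The part of these lists in the Col23a1 values was not tested. With the epithelial covariate, which is a mean log level and not a sum, the log2 fold change of Col23a1 was -1.14. Col26a1, first described in testis and ovary, had 0 to 377 counts and the lowest fold change of the other types, -2.84 ± 1.73 (SE, adjusted p = 0.324), which was -0.08 with that covariate. Fewer cells of a type and less RNA per cell cannot be told apart in bulk RNA.

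**Figure D2:**
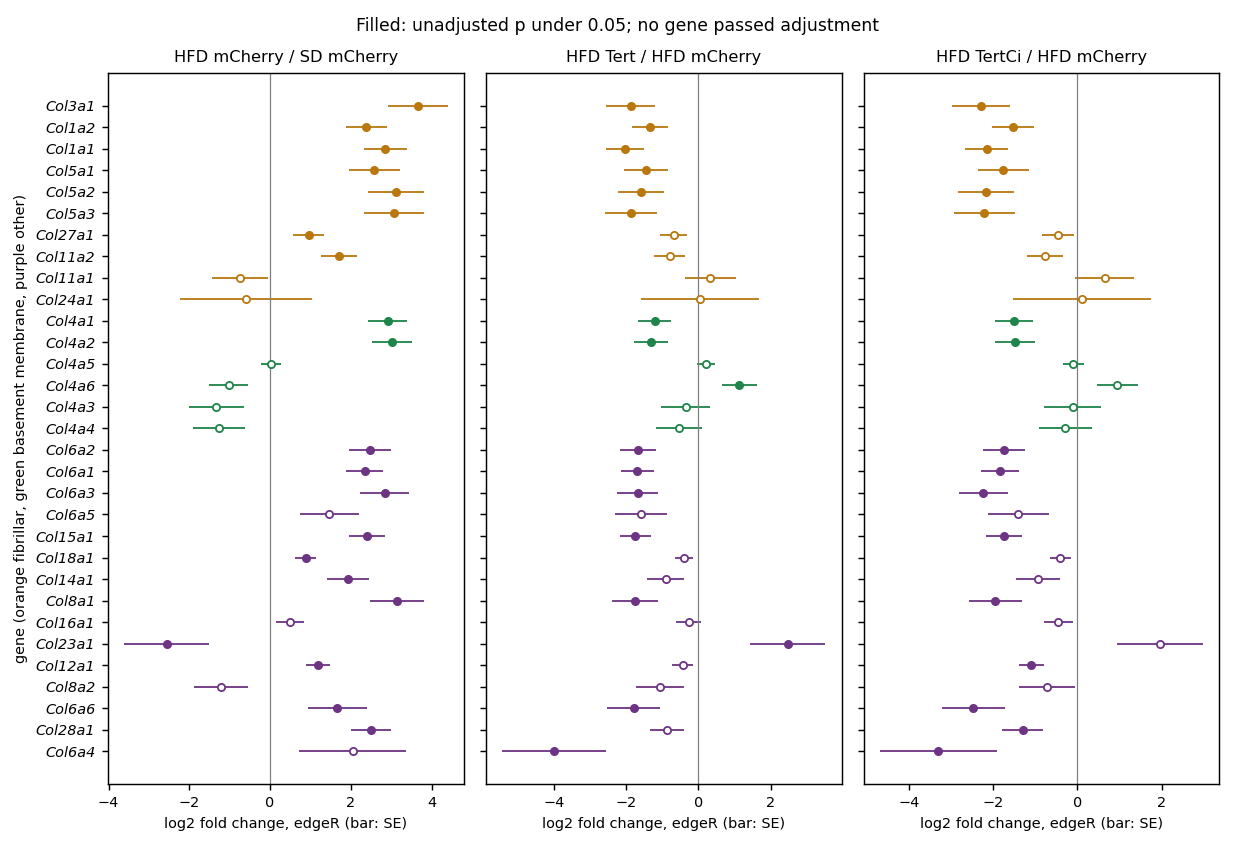
Log2 fold changes from edgeR with standard errors for 31 collagen genes in the diet comparison and in each cassette against HFD mCherry; orange, green and purple mark fibrillar, basement membrane and other types, and filled points have an unadjusted p under 0.05. Most abundant chains lie right of 0 for diet and left of 0 for both cassettes, and 0 genes passed adjustment.

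The second comparison asks whether Tert under the p21 promoter changes collagen RNA on the high-fat diet (HFD Tert against HFD mCherry). It shares the HFD mCherry libraries with the diet comparison, so a low or high HFD mCherry library moves both in opposite directions. Type I, III, V and VI chains were lower on average in HFD Tert, by 2.53 to 4.06 times for Col1a1, Col1a2, Col3a1, Col5a1 to Col5a3 and Col6a1 to Col6a3, but the groups overlapped for most because HFD Tert replicate 27 was high and HFD mCherry replicate 15 low. The median log2 fold change was -0.79 over the 41 genes and -1.39 over the fibrillar genes, beside -0.05 over all genes. edgeR called 0 collagen genes (0.0% of all genes; lowest adjusted p 0.187). At an unadjusted p under 0.05 there were 3 higher and 16 lower, against 6.62% and 9.75% of all genes. Only 5 lower and 1 higher had groups that did not overlap, against 11.1% and 9.99%. The 5 lower are thus near the background and the 1 higher is below it. DESeq2 called 1 higher and 4 lower (1.88% and 3.15%), and the fit with the epithelial covariate 0 higher and 11 lower (1.21% and 2.67%). Without HFD mCherry replicate 15 edgeR called 1, Col15a1, lower, against 0.299% of all genes. The 19 at an unadjusted p under 0.05 became 7 without HFD Tert replicate 25, 5 without HFD Tert replicate 26, 9 without HFD mCherry replicate 17 and 6 without HFD mCherry replicate 20.

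Of the 41 collagen genes tested, 2 were lower in all 6 cassette libraries than in all 3 HFD mCherry libraries, Col1a1 and Col6a1. That count is not above the background, which is 7.03% of all genes. Their Tert log2 fold changes were -2.02 ± 0.52 (SE, adjusted p = 0.187) and -1.68 ± 0.45 (SE, adjusted p = 0.189). Col3a1 had -1.88 ± 0.68 (SE, adjusted p = 0.238), with HFD Tert replicate 27 above HFD mCherry replicate 15. Col15a1 had -1.74 ± 0.44 (SE, adjusted p = 0.187), and HFD Tert replicate 27, at 248 CPM, passed the 226 CPM of HFD mCherry replicate 15. The other abundant interstitial chains gave -1.34 for Col1a2, -1.45 for Col5a1, -1.59 for Col5a2, -1.86 for Col5a3, -1.67 for Col6a2 and -1.68 for Col6a3. Type VI was negative in all 6 genes, with a median of -1.68, including -1.58 for Col6a5, -1.79 for Col6a6 and -3.99 for Col6a4, the lowest of the other types. That last value came from the single high library, HFD mCherry replicate 15.

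The type IV chains were again split. Col4a1 had -1.20 ± 0.46 (SE, adjusted p = 0.248) and Col4a2 -1.31 ± 0.47 (SE, adjusted p = 0.233), with HFD Tert replicate 27 above HFD mCherry replicate 15 in both. Col4a6 was higher on average, 1.13 ± 0.48 (SE, adjusted p = 0.286), at 56.4 and 62.4 CPM in replicates 25 and 26 but 17.3 in replicate 27. Col4a5 had 0.22, Col4a3 -0.34 and Col4a4 -0.53. The low fibrillar genes gave -0.68 for Col27a1, -0.79 for Col11a2 and 0.33 for Col11a1.

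Of the other types, Col23a1 had the highest value, 2.47 ± 1.05 (SE, adjusted p = 0.284), being at 171 and 155 CPM in HFD Tert replicates 25 and 26 and at 10.9 in replicate 27. Col8a1 had -1.76, Col8a2 -1.06, Col14a1 -0.90, Col12a1 -0.43, Col28a1 -0.86, Col18a1 -0.39 and Col16a1 -0.27. Col9a3, a chain of cartilage type IX collagen, was the 1 of 41 genes higher in all 6 cassette libraries than in all 3 HFD mCherry libraries. That count is not above the background, which is 6.01% of all genes. It was named after its values were seen. It stood at 2.14, 1.75 and 0.985 CPM in SD mCherry, 0.884, 1.26 and 1.02 in HFD mCherry, 2.33, 3.36 and 3.23 in HFD Tert and 2.14, 2.83 and 2.71 in HFD TertCi, and its log2 fold changes were 1.49 ± 0.43 (SE, adjusted p = 0.196) for Tert and 1.28 ± 0.43 (SE, adjusted p = 0.242) for TertCi. Its exons overlap those of Tcfl5 on the opposite strand by 234 bases, so without strand its reads are uncertain at this low level.

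The third comparison sets the inactive cassette against the same controls (HFD TertCi against HFD mCherry). The abundant chains were again lower, with less spread among the 3 cassette libraries: 13 lower and 2 higher genes had groups that did not overlap, against 12% and 9.45% of all genes. The median log2 fold change was -0.77 over the 41 genes and -1.64 over the fibrillar genes, beside -0.04 over all genes. edgeR called 0 (0.012% of all genes; lowest adjusted p 0.183), 1 higher and 17 lower had an unadjusted p under 0.05 (5.76% and 8.92%), DESeq2 called 0 higher and 13 lower (1.26% and 2.72%), and the fit with the epithelial covariate 0 higher and 7 lower (0.682% and 1.54%). Without HFD mCherry replicate 15 edgeR called 3, Col1a1, Col6a1 and Col15a1, all lower, against 1.16% of all genes.

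Log2 fold changes for TertCi were -2.16 ± 0.52 (SE, adjusted p = 0.183) for Col1a1, -2.30 ± 0.69 (SE, adjusted p = 0.212) for Col3a1, -1.84 ± 0.45 (SE, adjusted p = 0.184) for Col6a1, -2.24 ± 0.59 (SE, adjusted p = 0.191) for Col6a3 and -1.74 ± 0.44 (SE, adjusted p = 0.186) for Col15a1. All 5 were lower in each HFD TertCi library than in any HFD mCherry library. Col1a2 had -1.52, Col5a1 -1.76, Col5a2 -2.18, Col5a3 -2.21 and Col6a2 -1.75. The 6 type VI genes were all negative, with a median of -2.04, Col6a6 at -2.47, Col6a5 at -1.41 and Col6a4 at -3.31. The Col6a4 value came mostly from the single high library, HFD mCherry replicate 15, at 85.9 CPM. The other HFD mCherry libraries, at 3.01 and 3.23 CPM, lay within the HFD TertCi range of 1.75 to 4.96. Col4a1 had -1.51 ± 0.46 (SE, adjusted p = 0.216) and Col4a2 -1.49 ± 0.47 (SE, adjusted p = 0.229), and neither overlapped HFD mCherry. Col4a6 had 0.95, Col4a3 -0.12, Col4a4 -0.29 and Col4a5 -0.10. Col12a1, a fibril-associated chain, stood at 31.6, 21.5 and 17.7 CPM in SD mCherry, 68.1, 44.8 and 48.7 in HFD mCherry, 44.2, 49.2 and 26.6 in HFD Tert and 28.9, 21.9 and 24.8 in HFD TertCi, with -1.09 ± 0.30 (SE, adjusted p = 0.197). Col8a1 had -1.95, Col28a1 -1.31, Col14a1 -0.94, Col16a1 -0.45, Col18a1 -0.41, Col8a2 -0.72, Col23a1 1.96 and Col26a1, with the highest value, 2.32. That of Col26a1 became -0.28 with the epithelial covariate. Col11a1, Col11a2 and Col27a1 had 0.65, -0.77 and -0.46.

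The direct comparison of the active with the inactive cassette (HFD Tert against HFD TertCi) tests what the catalytic activity adds. No collagen gene was called by edgeR (0.0% of all genes; every adjusted p was 1) or by DESeq2 (0.018% and 0.0239% of all genes higher and lower). The median log2 fold change was 0.14, beside -0.01 over all genes. The 1 gene at an unadjusted p under 0.05 was Col12a1, with 0.67 ± 0.29 (SE), against 0.766% higher in all genes. That count became 0 without HFD Tert replicate 25 or 26, HFD TertCi replicate 31 or 33, HFD mCherry replicate 17 or 20, or SD mCherry replicate 2. The 1 gene whose groups did not overlap was Col4a5, higher in HFD Tert with 0.32 ± 0.25 (SE), against 2.55%. Abundant chains had standard errors that leave room for differences: Col1a1 had 0.14 ± 0.50 (SE), Col3a1 0.43 ± 0.66 (SE), Col4a1 0.31 ± 0.45 (SE) and Col6a1 0.16 ± 0.43 (SE). The extremes of the other types were Col22a1 (1.36) and Col25a1 (-1.90), each with at most 46 counts in a library.

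Against the standard diet group, the cassette groups on the high-fat diet had higher mean Col4a1 and Col4a2, without passing adjustment. In HFD Tert against SD mCherry Col4a1 had 1.71 ± 0.46 (SE, adjusted p = 0.169) and Col4a2 1.70 ± 0.47 (SE, adjusted p = 0.169). In HFD TertCi against SD mCherry they had 1.40 ± 0.46 (SE, adjusted p = 0.244) and 1.52 ± 0.47 (SE, adjusted p = 0.243). Neither gene's groups overlapped in either comparison. This was not particular to the type IV pair. Col1a2, Col3a1, Col9a3, Col11a2, Col15a1, Col18a1 and Col28a1 also lay above SD mCherry without overlap in both comparisons. Col3a1 had 1.79 in the first, Col1a1 0.83, and the median was 0.56 over the collagen genes and 0.47 in the second, beside -0.06 and -0.08 over all genes. Col28a1 had the highest value of the other types in the first (1.64), and Col8a1 and Col28a1 were level in the second (each 1.19), and the lowest were Col25a1 in the first (-3.17) and Col8a2 in the second (-1.94, with -2.28 in the first). edgeR called 0 genes in both (0.0% of all genes each). In the first, 7 higher and 4 lower had an unadjusted p under 0.05 (6.96% and 8.87% of all genes), 11 higher and 1 lower did not overlap (11.3% and 12%), and DESeq2 called 3 higher and 1 lower (1.75% and 4.01%). In the second there were 3 and 2 (6.77% and 7.92%), 9 and 1 (10.3% and 10.1%), and 1 and 0 (1.63% and 2.65%). The 11 at an unadjusted p under 0.05 in the first became 7 without HFD Tert replicate 27 or without SD mCherry replicate 2. The 5 in the second became 10 without HFD mCherry replicate 15, 3 without HFD TertCi replicate 31 and 2 without SD mCherry replicate 2. Without SD mCherry replicate 3 edgeR called Col4a4 and Col8a2 lower in both, against 2.83% and 1.91% of all genes. With the epithelial covariate 0 were called in either comparison (0.0778% and 0.0% of all genes higher and lower in the first, 1.1% and 0.138% in the second). An F-test over the 4 groups called 0 collagen genes by edgeR (0.012% of all genes), with 23 at an unadjusted p under 0.05 (20.2%), 20 by DESeq2 (13.6%) and 15 with the covariate (5.63%). Without HFD mCherry replicate 15 edgeR called 13 (3.81%), without SD mCherry replicate 3 it called 3 (3%) and without HFD Tert replicate 27 it called 3 (0.991%).

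**Figure D3:**
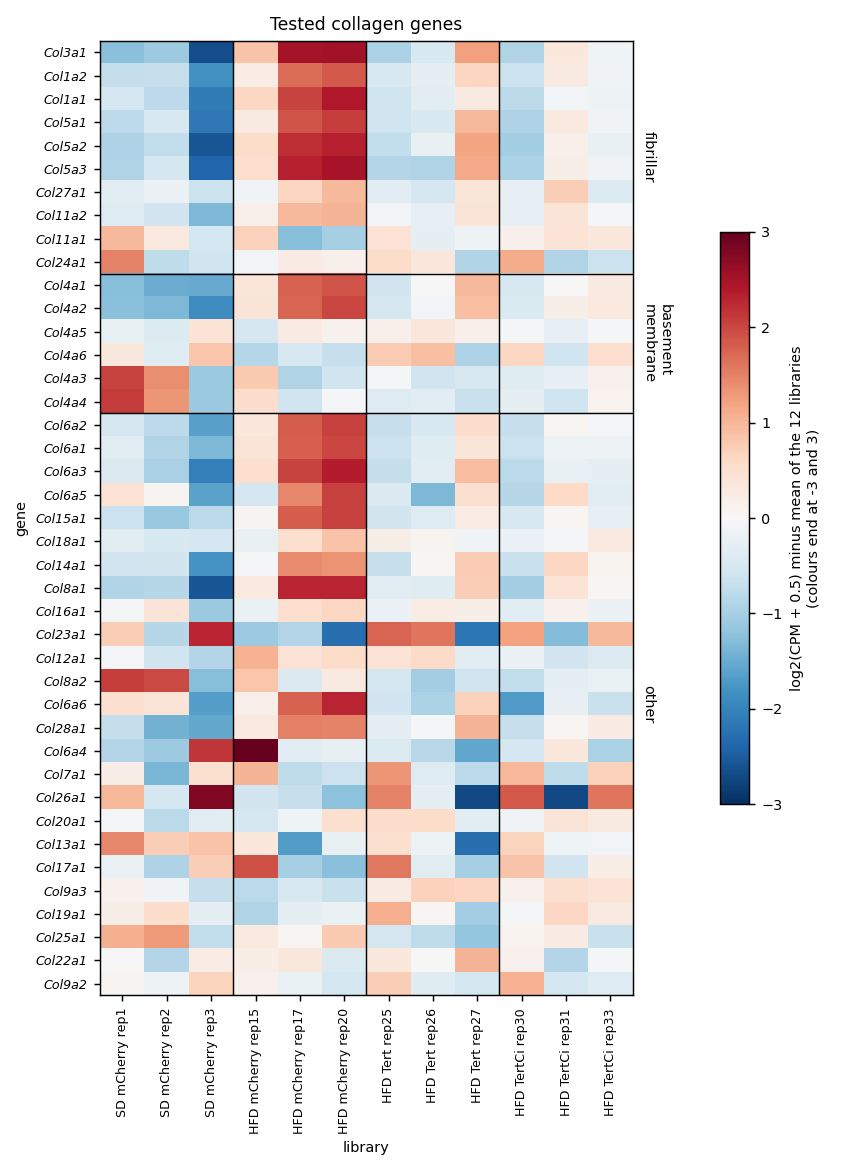
Log2(CPM + 0.5) of each tested collagen gene (41 lines, ordered by class and mean level) in the 12 libraries, relative to that gene's mean, with colours ending at -3 and 3. For the chains with a mean of at least 100 CPM, HFD mCherry replicates 17 and 20 are red and SD mCherry replicate 3 is blue. Col4a5 and Col23a1 are highest in SD mCherry replicate 3, while Col4a3, Col4a4 and Col8a2 are red in SD mCherry replicates 1 and 2.

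Levels can be set against each other only per length, as RPKM per longest protein-coding transcript. In SD mCherry the order began with Col1a2 (128 ± 48.8 RPKM, SD, n = 3), Col3a1 (97.5 ± 46.9), Col6a1 (77.7 ± 28.0) and Col1a1 (74.6 ± 35.6), neighbours that do not differ beyond their spread. In HFD mCherry it began with Col3a1 (1234 ± 628) and Col1a2 (670 ± 328). The cassette groups also began with Col3a1 (336 ± 283 in HFD Tert and 250 ± 98.3 in HFD TertCi) and Col1a2 (264 ± 116 and 233 ± 71.0), close together, and had Col4a1 next.

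The make-up of the collagen RNA moved with its level. Fibrillar genes took 45.4%, 51.7% and 33.5% of summed collagen RPKM in SD mCherry, 57.0%, 60.0% and 58.8% in HFD mCherry, 47.2%, 48.1% and 56.9% in HFD Tert and 46.2%, 54.9% and 48.2% in HFD TertCi. HFD mCherry exceeded the 9 others. HFD mCherry replicate 15 and HFD Tert replicate 27 were nearly equal. Col3a1 alone took 8.80% to 15.9% in SD mCherry, 25.6% to 28.6% in HFD mCherry, 14.4% to 26.97% in HFD Tert and 15.9% to 21.6% in HFD TertCi. The type IV chains took 12.6% to 19.7% in SD mCherry, 14.3% to 15.7% in HFD mCherry, 17.9% to 20.5% in HFD Tert and 16.03% to 20.8% in HFD TertCi. Both cassette groups lay above HFD mCherry in that share.

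Ratios of partner chains within a library do not depend on the scaling between libraries. Type I collagen usually holds Col1a1 and Col1a2 chains in unequal number, and per length the ratio of Col1a1 to Col1a2 RNA was 0.664, 0.544 and 0.482 in SD mCherry, 0.771, 0.750 and 0.867 in HFD mCherry, 0.534, 0.570 and 0.452 in HFD Tert and 0.534, 0.467 and 0.569 in HFD TertCi. All 3 HFD mCherry libraries lay above the 9 others. The ratio of Col5a1 to Col5a2 went the other way, at 1.25 to 1.52 in SD mCherry, 0.891 to 0.949 in HFD mCherry, 0.960 to 1.24 in HFD Tert and 1.23 to 1.24 in HFD TertCi. Col3a1 to Col1a1 was 1.13 to 1.53 in SD mCherry and 2.06 to 2.60 in HFD mCherry, but 1.47 to 3.68 in HFD Tert and 1.75 to 2.45 in HFD TertCi, the last above all SD mCherry libraries and overlapping HFD mCherry. The head-to-head type IV pairs differed in how tight they were: Col4a1 to Col4a2 was 1.19 to 1.70 over the 12 libraries, Col4a3 to Col4a4 was 0.872 to 1.73, and Col4a5 to Col4a6 was 1.62 to 5.55. Col4a3 and Col4a4 had as few as 82 and 73 counts in a library, so counting noise is larger in their ratio.

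**Figure D4:**
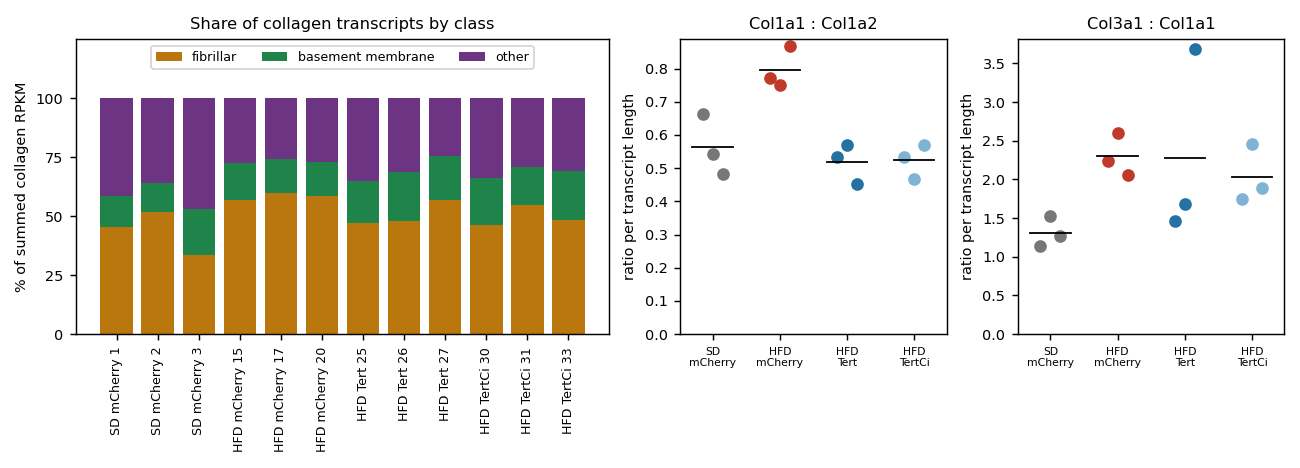
Left, share of summed collagen RPKM taken by fibrillar, basement membrane and other types in each library; middle and right, ratios of Col1a1 to Col1a2 and of Col3a1 to Col1a1 per transcript length, by library (points) with group means (bars). The Col1a1 to Col1a2 ratio is 0.750 to 0.867 in HFD mCherry and at most 0.664 elsewhere.

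Genes that fold, cross-link, cut or bind collagen are given from lists of 32 processing genes and 10 receptors. Of the 31 processing genes tested, 30 had a positive diet fold change, with a median log2 of 1.27, and 24 higher and 0 lower had an unadjusted p under 0.05, against 14.1% and 10% of all genes. edgeR called 0 (0.0479%), DESeq2 18 (7.76%) and the fit with the epithelial covariate 17 (4.95%), all higher. Adamts2 and Loxl2 had the highest values among genes of at least 1 CPM. Adamts2, which removes the N-terminal propeptide of fibrillar procollagens, stood at 102, 119.7 and 41.8 CPM in SD mCherry, 183, 631 and 757 in HFD mCherry, 121, 144 and 274 in HFD Tert and 96.9, 254 and 184 in HFD TertCi, with 2.58 ± 0.61 (SE, adjusted p = 0.0727). Loxl2, a lysyl oxidase that cross-links collagens including type IV, had 2.48 ± 0.60 (SE, adjusted p = 0.0729). The lowest were Colgalt2, a collagen galactosyltransferase, with -0.02, and Ppib, a prolyl isomerase of the endoplasmic reticulum, with 0.28.

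In the cassette comparisons most processing genes had negative fold changes. For Tert, 28 of 31 were negative with a median of -0.60, and 0 higher and 7 lower had an unadjusted p under 0.05, against 6.62% and 9.75% of all genes. For TertCi, 29 were negative with a median of -0.76, and 1 higher and 12 lower did, against 5.76% and 8.92%. edgeR called 0 in both (0.0% and 0.012%). DESeq2 called 1 lower in each, which is near the background (3.15% and 2.72%). Loxl1, a lysyl oxidase better known for elastin, had -1.36 for Tert and -1.66 for TertCi, Adamts2 had -1.54 for Tert, and Pcolce2, an enhancer of C-propeptide removal, had -2.06 for TertCi. Tll1, a procollagen C-proteinase related to Bmp1, was highest in both (0.77 and 1.20), followed by Colgalt2 (0.43 and 0.33). Between the cassettes the extremes were Tll1 (-0.43), Mia3 (-0.13), P3h2 (0.57) and Pcolce2 (0.82), with 0 at an unadjusted p under 0.05. Tll1 became 0.0603 without HFD TertCi replicate 31 and Pcolce2 -0.0212 without HFD Tert replicate 27. Against SD mCherry they were Mia3 (-0.08), P4hb (-0.03), Tll1 (1.28) and Loxl2 (1.35) for HFD Tert, and Pcolce2 (-0.29), P4hb (0.04), Pcolce (1.18) and Tll1 (1.71) for HFD TertCi.

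The receptors were mixed. Of 9 tested, 4 higher and 1 lower had an unadjusted p under 0.05 for diet, against 14.1% and 10% of all genes, so the 1 lower is near the background. edgeR called 0 (0.0479%) and DESeq2 4 higher and 1 lower (7.76% and 4.29%). Mrc2, the endocytic collagen receptor of fibroblasts, stood at 41.9, 46.9 and 27.7 CPM in SD mCherry, 96.3, 328 and 344 in HFD mCherry, 52.99, 54.6 and 128 in HFD Tert and 44.7, 103 and 60.95 in HFD TertCi, with 2.72 ± 0.55 (SE, adjusted p = 0.0659). Lair1, an inhibitory collagen receptor of leukocytes, stood at 5.09, 3.64 and 3.59 CPM in SD mCherry, 11.99, 34.8 and 33.5 in HFD mCherry, 2.33, 1.01 and 6.46 in HFD Tert and 4.23, 9.01 and 2.31 in HFD TertCi, with 2.70 ± 0.72 (SE, adjusted p = 0.0816) for diet, -3.03 ± 0.73 (SE, adjusted p = 0.187) for Tert and -2.37 ± 0.71 (SE, adjusted p = 0.212) for TertCi. The summed level of 8 macrophage markers moved the same way, from 345 to 556 CPM in SD mCherry to 1265 to 3593 in HFD mCherry, 273 to 1393 in HFD Tert and 386 to 751 in HFD TertCi, and its part in the Lair1 values was not tested. Ddr1 and Itga2, receptors of epithelia, had -1.45 and -1.24 for diet. Itga11, the fibroblast integrin for fibrillar collagen, had -2.03 for Tert and -2.23 for TertCi. The highest receptors were Itga2 (0.92) and Itga1 (0.61) for Tert and Itga2 (1.06) and Ddr1 (0.62) for TertCi. Itga2 for Tert became -0.425 without HFD Tert replicate 25. Between the cassettes the extremes were Lair1 (-0.66), Ddr1 (-0.38), Itga1 (0.23) and Ddr2 (0.37). Against SD mCherry they were Ddr1 (-1.22), Lair1 (-0.33), Itga1 (0.78) and Mrc2 (1.02) for HFD Tert, and Ddr1 (-0.84), Itga2 (-0.17), Itga1 (0.55) and Mrc2 (0.84) for HFD TertCi.

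Markers of the cells that make collagen moved with part of the pattern. All 9 progenitor and fibroblast markers were detected in every library, with summed levels of 5961 to 6640.5 CPM in SD mCherry, 5447 to 17810.1 in HFD mCherry, 6477 to 11349 in HFD Tert and 6449 to 9004 in HFD TertCi. HFD mCherry replicate 15 had the lowest progenitor sum of the 12 libraries, but its mean log2 level over the 9 markers, 8.28, lay above the 3 SD mCherry libraries (7.62 to 8.23), so the sum and the mean order this library differently. Divided by that sum, summed fibrillar CPM was 0.403, 0.377 and 0.144 in SD mCherry, 1.19, 1.06 and 1.34 in HFD mCherry, 0.420, 0.419 and 0.702 in HFD Tert and 0.387, 0.559 and 0.563 in HFD TertCi. By this ratio to the sum replicate 15 lay with its group, and all 3 HFD mCherry libraries lay above the 9 others.

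The type IV chains were set beside the endothelial and the progenitor markers, and which cells made them was not tested. All 8 endothelial markers were detected in every library, with summed levels of 816 to 1158 CPM in SD mCherry, 1649 to 2995 in HFD mCherry, 2019 to 4799 in HFD Tert and 2249 to 5055 in HFD TertCi. Col4a1 plus Col4a2 divided by that sum was 0.620, 0.476 and 0.576 in SD mCherry, 1.17, 1.68 and 2.06 in HFD mCherry, 0.506, 0.485 and 0.595 in HFD Tert and 0.486, 0.312 and 0.598 in HFD TertCi. Divided by the progenitor sum instead, it was 0.0707 to 0.104 in SD mCherry, 0.283 to 0.366 in HFD mCherry, 0.158 to 0.252 in HFD Tert and 0.169 to 0.258 in HFD TertCi, so all 6 cassette libraries lay above SD mCherry. Relative to endothelial markers all 6 cassette libraries lay within or below the SD mCherry range, while their Col4a1 and Col4a2 levels lay above it. The sum of 6 mesothelial markers was 281 to 1625 CPM, with HFD mCherry below the 9 other libraries. That order holds for the sum only. By mean log2 level SD mCherry replicate 3, at 4.64, lay below HFD mCherry, at 5.08 to 5.18. The other sums were 33.4 to 95.5 CPM for 6 adipocyte, 7.24 to 25.1 for 7 lymphocyte, 51.5 to 217 for 5 Schwann cell, 19.97 to 612 for 5 chondrocyte and 2.64 to 812 for 6 skeletal muscle markers over the 12 libraries. Myh4 and Matn1 were at 0 counts in all 12, while 3 to 5 of the 6 skeletal muscle markers and 3 or 4 of the 5 chondrocyte markers were detected in each library.

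**Figure D5:**
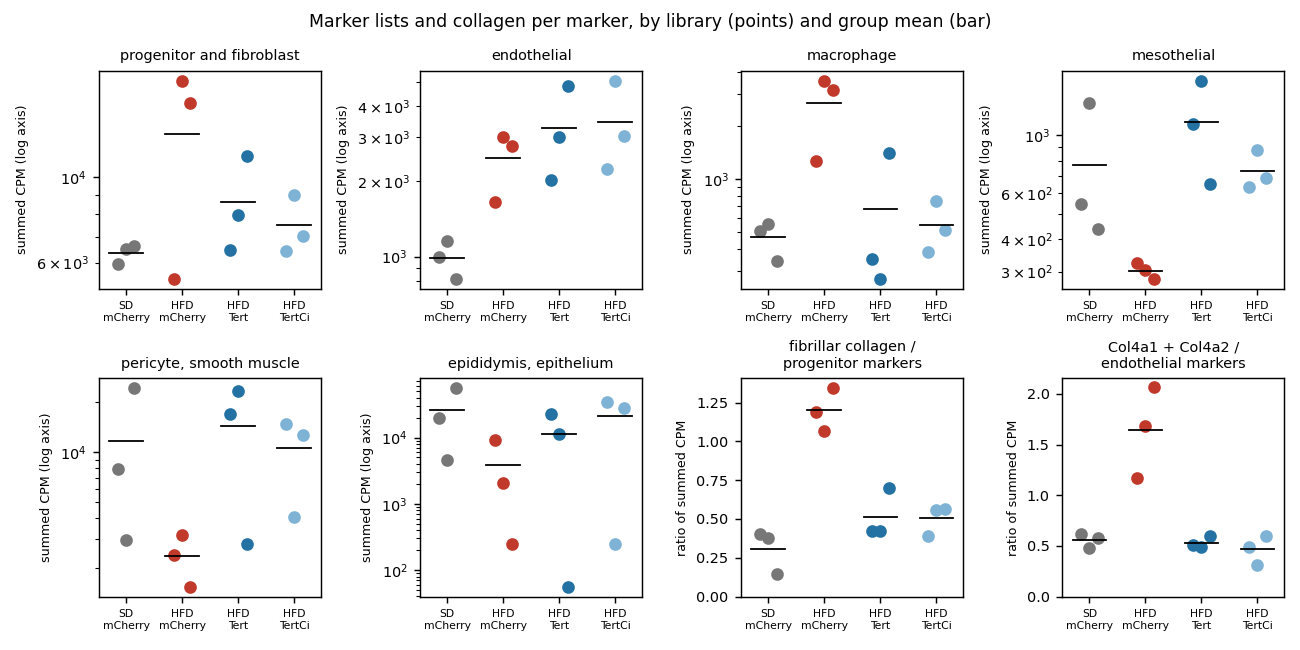
Summed CPM of 6 marker lists (log axes) by library (points) with group means (bars), and 2 ratios of collagen to marker sums (linear axes from 0). The ratio of fibrillar collagen to progenitor markers is 1.06 to 1.34 in HFD mCherry and at most 0.702 in the other groups.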

How the data were processed

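Poly-A RNA-seq was made from 12 libraries in 4 groups of 3, assigned by the labels. The authors deposited raw read counts per gene, 1 table a library, per the file headers. The submitters' processing notes name mm10, Subread, SAMtools and featureCounts 1.6.4 without roles; annotation and strand setting are not given in the sources used here. Transcript lengths and coordinates came from GENCODE M21 (GRCm38) and promoters from RefSeq (GRCm38.p6).

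In edgeR 4.0.16 (R 4.3.3), 16713 genes passed filterByExpr, 41 of the 44 collagen genes among them (not Col2a1, Col9a1 and Col10a1, with 33, 33 and 31 counts in all). TMM factors were 0.854 to 1.15. A robust quasi-likelihood fit to all 12 libraries gave 6 pairwise comparisons and an F-test, with Benjamini-Hochberg adjustment over all genes and calls at 0.05. Alternatives used DESeq2 1.42.0, limma 3.58.1 voom, other scalings and filters, an epithelial covariate, the 6 compared libraries alone, and each library left out. The script was tested on simulated data. RPKM used the longest protein-coding transcript, and chain ratios added 0.5 counts to each gene.

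Collagen classes and the processing, receptor and marker lists were chosen with earlier results of these data known. Named were all tested fibrillar and type IV genes, other types with a mean of at least 10 CPM or an extreme fold change, and in each comparison the 2 highest and 2 lowest processing and receptor genes of at least 1 CPM.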

Additional observations from a re-analysis of the deposited data

How the results depend on the processing

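With 3 libraries a group and a coefficient of variation of 0.536, edgeR made few calls, so a gene that was not called may still differ. By DESeq2 the collagen genes called were 19 for diet, 5 for Tert, 13 for TertCi, 4 for HFD Tert and 1 for HFD TertCi against SD mCherry, and 20 in the F-test. With the epithelial covariate they were 17, 11, 7 and, in the F-test, 15. Of the 31 processing genes and 9 receptors tested, DESeq2 called 23 for diet, 3 for Tert, 4 for TertCi and 17 in the F-test. It called 1 for HFD TertCi against SD mCherry. With the covariate they were 20, 7, 4 and, in the F-test, 12. DESeq2 shares of all genes, higher and lower, were 7.76% and 4.29% for diet, 1.88% and 3.15% for Tert and 1.26% and 2.72% for TertCi. They were 1.63% and 2.65% for HFD TertCi against SD mCherry and 13.6% in the F-test. Covariate shares were 4.95% and 1.45%, 1.21% and 2.67%, 0.682% and 1.54%, and 5.63% in the F-test. The cause of the differences between fits was not tested. The main edgeR fit called 0 of these genes in every comparison, and the other alternatives that kept all libraries also called 0.

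When 1 library was left out, collagen genes called ranged from 0 to 17 for diet, 0 to 1 for Tert, 0 to 3 for TertCi, 0 to 2 in both comparisons with SD mCherry and 0 to 13 in the F-test; processing and receptor genes from 0 to 24 for diet, 0 to 3 for TertCi and 0 to 11 in the F-test. The highest counts came without HFD mCherry replicate 15, except against SD mCherry, where they came without SD mCherry replicate 3. Without HFD mCherry replicate 15 edgeR called 12.2% of all genes for diet, 0.299% for Tert, 1.16% for TertCi and 3.81% in the F-test. Without SD mCherry replicate 3 it called 2.83% for HFD Tert and 1.91% for HFD TertCi against SD mCherry. Of the fold changes, Col24a1 turned sign under limma-voom (0.89 for diet, -0.95 for Tert, -1.41 for TertCi) and with the covariate (1.51, -1.52 and -1.82), and Col4a3 for TertCi under limma-voom (0.0722). Library size alone moved the median of all genes by -0.20 for diet, 0.10 for TertCi and -0.11 for HFD Tert against SD mCherry, and turned Col4a5 (-0.19 for diet, 0.0406 for TertCi), P4hb against SD mCherry (-0.0454 for HFD TertCi) and the receptor median for TertCi (0.0490; 0.13 with no filter). P4hb for HFD Tert turned to 0.00151 under limma-voom and 0.0478 with the covariate, and Col26a1 for TertCi to -0.28 with the covariate.

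With 1 library left out, diet fold changes ranged from -0.12 to 0.31 for Col4a5, -1.14 to 2.55 for Col24a1, -1.26 to 4.16 for Col6a4 and -0.12 to 0.0787 for Colgalt2. For Tert the ranges were -0.65 to 0.40 for Col4a3, -0.0730 to 1.61 for Col11a1, -0.53 to 0.62 for Col24a1, -0.425 to 1.39 for Itga2 and -0.425 to 0.14 for the receptor median. For TertCi they were -0.42 to 0.63 for Col4a3, -0.54 to 0.0526 for Col4a4, -0.30 to 0.0493 for Col4a5, -3.09 to 0.67 for Col24a1 and -0.30 to 0.0458 for the receptor median. Between the cassettes they were -0.785 to 0.0603 for Tll1 and -0.0212 to 1.23 for Pcolce2. Against SD mCherry they were -0.17 to 0.25 for P4hb and -1.29 to 0.0762 for Lair1 in HFD Tert, and -0.77 to 0.17 for Pcolce2, -0.10 to 0.32 for P4hb and -0.60 to 0.36 for Itga2 in HFD TertCi. No paired analysis was possible because no replicate number occurs in more than 1 group.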
